A study of Mus musculus with 16 samples.

Results

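Transcripts of 8 T-box genes, Tbx1, Tbx2, Tbx3, Tbx4, Tbx5, Tbx15, Tbx18 and Tbx20, were followed in WT and Taf4a-/- mouse cells as embryonic stem cells (ESCs) were driven towards neurons. They were picked by name from the 27807 genes of the table, with their normalised counts in these same 16 libraries already known. For that reason their levels and genotype differences are given as a description, and how many passed the threshold of a fit over all genes is given once, beside the share of all genes, with nothing read from it. T-box factors bind DNA through a shared domain, the T-box, and specify embryonic cell types. Tbx2 and Tbx3 act mainly as repressors, Tbx4 and Tbx5 direct growth of the hind and fore limbs, and Tbx1, Tbx5, Tbx18 and Tbx20 pattern different parts of the heart and pharynx. In the mouse Tbx2 lies beside Tbx4 and Tbx3 lies beside Tbx5, so that each pair holds a gene of either kind. Tbx3 is also part of the gene network of naive ESCs.

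The cells were WT (Taf4+/+) ESCs or ESCs homozygous for a Taf4a null allele from which exons are deleted (Taf4a-/-), derived from blastocysts of crosses between heterozygous C57Bl6J mice and grown on fibroblast feeders. Taf4a encodes a subunit of TFIID, the complex through which RNA polymerase II is recruited to core promoters. Each genotype was represented by 2 independent lines, and poly-A RNA was sequenced in 4 states, namely ESCs (ES), embryoid bodies before retinoic acid (EB4), embryoid bodies on the first day of retinoic acid (EB5) and embryoid bodies later in the treatment (EB8). This gave 8 groups of 2 libraries. Cells of both genotypes went through the same aggregation and retinoic acid treatment, so that stage, time in culture and retinoic acid cannot be told apart, and embryoid bodies are mixtures of cell types. The question put by the comparison is how loss of Taf4a changes expression at each state of this differentiation.

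Between 22442118 and 40711826 reads per library were assigned to genes. Every ES library held at least 32631020 and every embryoid body library at most 27685306, so that depth differed between ES and the later stages. The 8 T-box genes together received from 398 to 4836 reads per library, most of them from Tbx3 outside WT EB8. Replicates of every group differed by far more than counting noise, with a chi-square per degree of freedom of 47.9 to 126. Taf4a itself stood at 1590.9 to 1959.6 normalised counts over the WT and 1972.8 to 2400 over the Taf4a-/- libraries, and since the deletion removes only part of the transcript, a count per gene is no check of the label. Summed over 8 markers of pluripotent cells, WT EB8 libraries held 2041 and 2234 normalised counts and Taf4a-/- EB8 libraries 27975 and 29079. Over 7 neural markers the same libraries held 37055 and 36275 against 5470 and 5188. In WT this sum was 5272 to 11694 in ES, 11737 to 12342 at EB4 and 16526 to 24526 at EB5. It was thus highest in WT at EB8, the stage labelled neural precursor cells, but was not confined to that stage. Among these markers Olig2 alone was higher in WT ES, at 2010.6 and 668.9, than in WT EB8, at 173.3 and 289. Tested genes of chromosome 11, which carries Tbx2 and Tbx4, had a median log2 deviation from their own means of 0.18 to 0.28 in the first Taf4a-/- replicate of all 4 stages and of -0.13 to 0.03 in the other 12 libraries. The part of this in Tbx2 and Tbx4 was not tested beyond leaving out such a library.

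At EB8 Tbx3 and Tbx4 were higher in Taf4a-/- than in WT, by 8.41 and 10.9 times in the group means, whereas Tbx2 was 2.95 times higher in WT. All 3 genes were separated by genotype at this stage, with no overlap between the 2 libraries of each group. Tbx1 was separated too, with Taf4a-/- below WT. Of all tested genes, 30.4% were separated at EB8 with Taf4a-/- above WT and 33.5% with Taf4a-/- below it. The separation of Tbx3 was already present at EB4 and EB5. In bulk RNA, fewer cells that express a gene and less RNA per cell cannot be told apart.

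**Figure D1:**
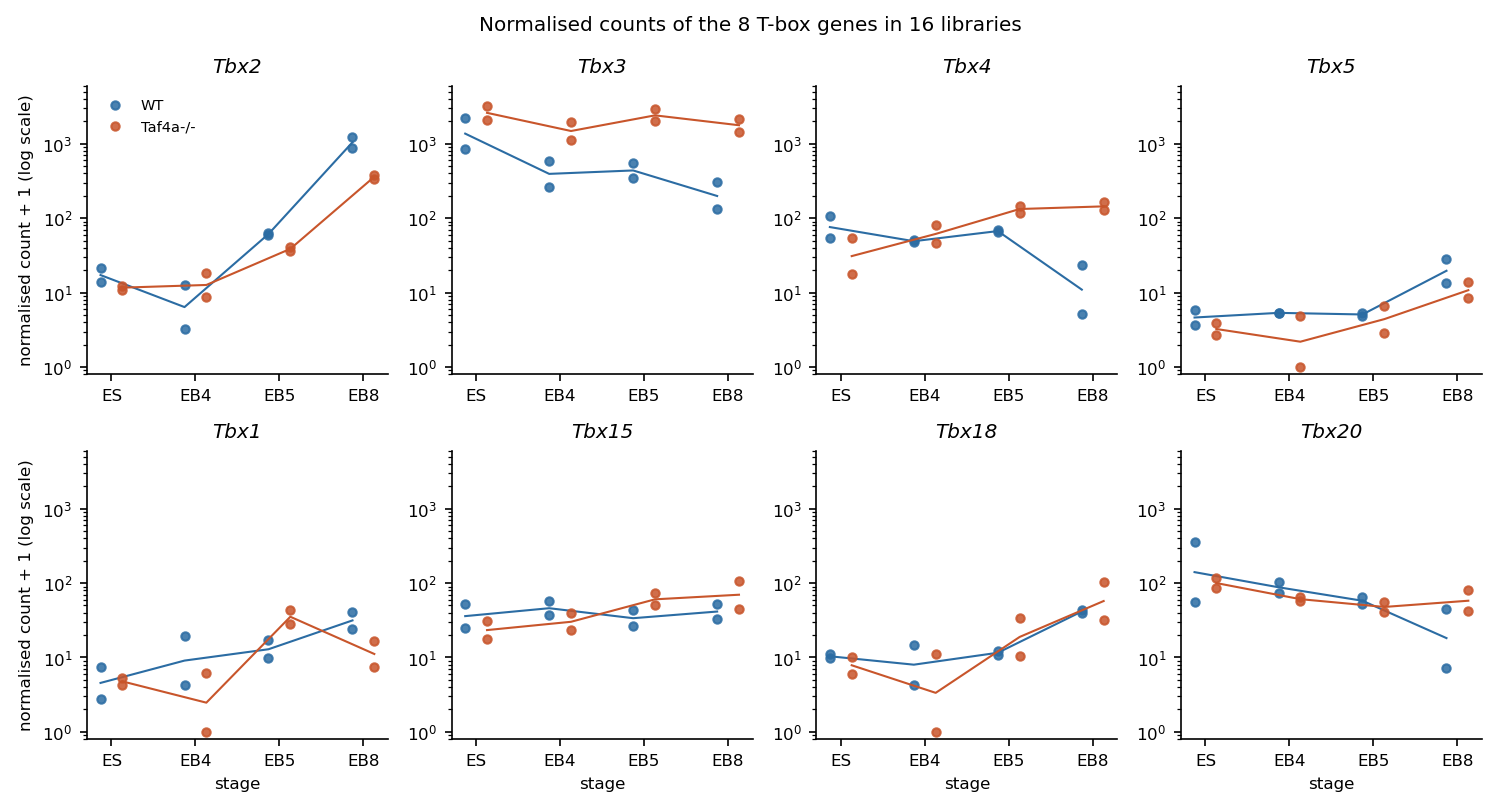
Normalised count plus 1 (log axis) of each T-box gene in every library, by stage. Points are single libraries of WT (blue) and Taf4a-/- (orange) cells, and lines join the means of the 2 libraries taken on the log scale. Tbx2 climbs to 877.9 and 1254.6 in WT EB8 libraries, while the lowest of the 8 Taf4a-/- libraries for Tbx3 is at 1122.7.

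Tbx2 (chromosome 11, 85646053 to 85655450, plus strand, NCBI37) encodes a repressor best known for limiting chamber muscle differentiation in the heart and for a role in the developing eye. Its WT libraries held 12.7 and 20.7 normalised counts in ES, 2.2 and 11.8 at EB4, 58.3 and 62.6 at EB5 and 877.9 and 1254.6 at EB8. Taf4a-/- libraries held 10.0 and 11.4, then 17.5 and 7.7, then 35.1 and 40.7, and finally 338.7 and 383.5. Tbx2 thus stood higher at EB8 than at EB5 in both genotypes, by 17.6 times in the WT means and 9.53 times in the Taf4a-/- means. The normalised counts of the genotypes did not overlap in ES, at EB5 or at EB8, in each case with Taf4a-/- below WT. In ES this rested on 14 and 26 reads in WT against 12 and 16 in Taf4a-/-, which overlapped before scaling. The log2 difference, Taf4a-/- minus WT, was -1.54 with a standard error (SE) of 0.60 at EB8, and -0.57, 0.99 and -0.66 in ES, at EB4 and at EB5. At EB4 it rested on 2 to 15 reads a library, and was -0.01 without the first WT library.

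Tbx3 (chromosome 5, 120120678 to 120134733, plus strand) encodes the repressor closest to Tbx2, and in ESCs it is known for sustaining Nanog and the naive state. WT libraries held 847.4 and 2223.6 normalised counts in ES, 266.3 and 583.3 at EB4, 350.0 and 549.1 at EB5 and 130.2 and 301.8 at EB8. In Taf4a-/- libraries the counts were 2094.5 and 3259.8, 1122.7 and 1974.2, 2004.3 and 2915.8, and 1454.9 and 2178.4. The WT mean was 7.11 times lower at EB8 than in ES without overlap of the libraries, whereas in Taf4a-/- the ES and EB8 libraries overlapped and their means differed by 1.47 times. Both Taf4a-/- libraries lay above both WT libraries at EB4, EB5 and EB8 but not in ES, where the second WT library exceeded the first Taf4a-/- library. The log2 difference was 0.93, 1.91, 2.46 and 3.16 at the successive stages (SE 0.54). Whether it grew from stage to stage was not tested. In ES, where Tbx3 overlapped, the summed pluripotent markers were higher in Taf4a-/-, at 58161 and 83118 in WT against 97772 and 100941. They were also higher at EB4, at 20121 to 35948 in WT against 55176 to 70813, and at EB5, at 8688 to 12828 against 35064 to 54114. At EB8 the sums were higher too, and both Taf4a-/- libraries exceeded both WT libraries for 7 of the 8 markers, beside 30.4% of all tested genes. Their part in Tbx3 was not tested.

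The 2 repressors changed places in WT. Per kb of exon, a scale on which genes of different length can be compared, the Tbx2 level was 9.98 and 6.15 times the Tbx3 level in the 2 WT EB8 libraries. Tbx3 was the higher of the pair in the other 14 libraries, by 4.06 and 5.93 times at WT EB5 and by 2.90 and 3.84 times at Taf4a-/- EB8. Tbx3 made up 8.03% and 12.0% of the summed level per kb of the 8 genes in WT EB8 libraries and 60.0% and 65.2% in Taf4a-/- EB8 libraries. Tbx2 made up 80.1% and 73.6% against 20.7% and 17.0%. At EB8 the first place in the order of the 8 genes was thus held by Tbx2 in WT and by Tbx3 in Taf4a-/-, and in neither genotype did the libraries of the first and second gene overlap.

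**Figure D2:**
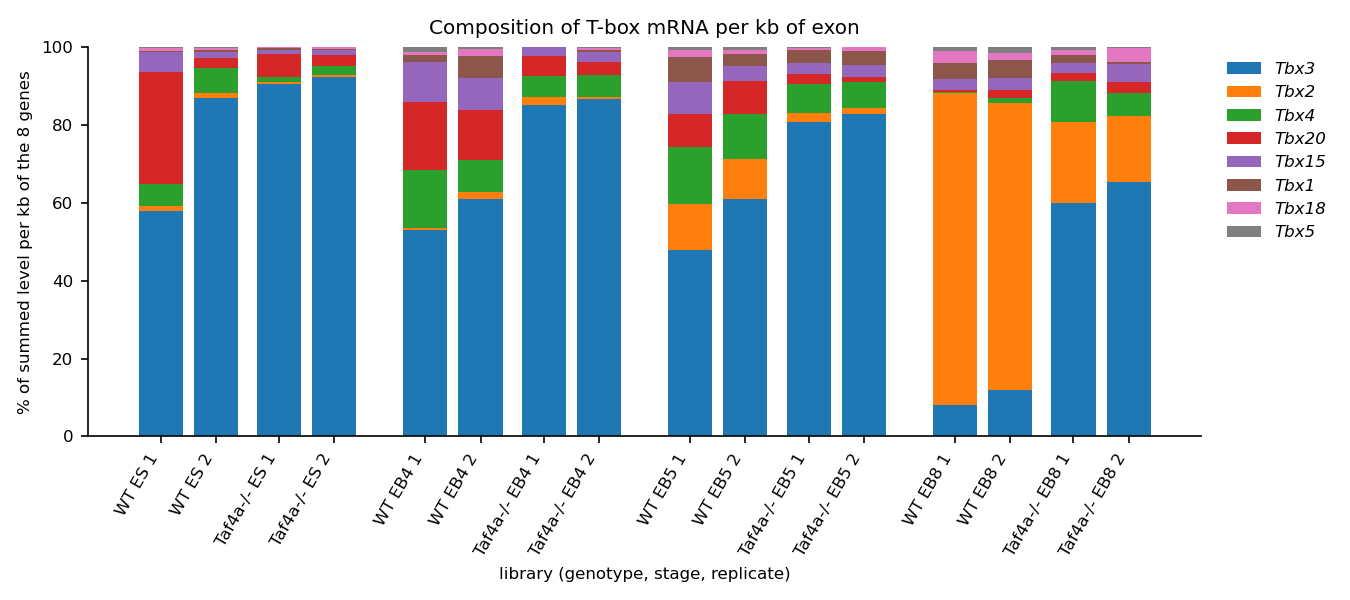
Share of each gene in the summed level per kb of exon of the 8 T-box genes (y axis, %), one bar per library. Tbx3 (blue) fills 48.0% to 92.3% of every bar but the 2 WT EB8 bars, in which Tbx2 (orange) fills 80.1% and 73.6%.

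Tbx4 (chromosome 11, 85699924 to 85729599, plus strand) begins 44.5 kb beyond the end of Tbx2, and its product directs hind limb outgrowth and is found in lung mesenchyme and allantois. WT libraries held 52.8 and 106.8 normalised counts in ES, 47.1 and 49.3 at EB4, 67.8 and 64.8 at EB5, and 4.2 and 22.2, or 4 and 21 reads, at EB8. The Taf4a-/- counts were 16.6 and 53.6, 45.6 and 80.4, 118.5 and 147.4, and 162.5 and 126.8. The WT level was thus 5.01 times lower at EB8 than at EB5, while the Taf4a-/- libraries of these stages overlapped. Taf4a-/- lay above WT at EB5 and EB8 without overlap, and the groups overlapped in ES and at EB4. The log2 difference was -1.30, 0.32, 0.99 and 3.72 in stage order (SE 0.69), and the EB4 value was -0.08 without the second Taf4a-/- library. The size of the EB8 difference rested on the few WT reads, and was 2.64 without the first and 4.80 without the second WT library. Leaving out the first Taf4a-/- EB8 library, in which chromosome 11 was high, gave 3.54 for Tbx4 and -1.45 for Tbx2 at EB8.

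The promoter of Tbx4 is shown because Tbx4 had the largest EB8 difference of the 7 genes in the fit and because TFIID binds core promoters. RefSeq promoter windows (table build GRCm38.p6) were found for Tbx1, Tbx4, Tbx18 and Tbx20, and none was listed for Tbx2, Tbx3, Tbx5 and Tbx15. The Tbx4 window of 300 bases, 250 before the RefSeq start and 50 from it, matched NCBI37 once, at chr11:85710017-85710316 on the plus strand, inside the gene as annotated in GENCODE M1. Capitals mark TTATAA, which holds the TATA core TATAA on the plus strand at position -83 from the start and on the minus strand at -84.
Tbx4 promoter: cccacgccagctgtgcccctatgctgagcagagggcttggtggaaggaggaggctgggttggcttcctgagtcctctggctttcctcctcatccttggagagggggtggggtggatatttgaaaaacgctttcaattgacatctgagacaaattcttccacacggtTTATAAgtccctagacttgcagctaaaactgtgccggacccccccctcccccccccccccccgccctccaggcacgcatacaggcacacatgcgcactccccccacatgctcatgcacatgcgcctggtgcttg
TATAA stood anywhere on either strand in 24.8% of 32544 mouse promoter windows, and of the 5 windows of these T-box genes this one held it. The match at -83 lies outside the stretch from 40 to 11 bases before the start, where 3.79% of all windows held TATAA on the same strand. The T-box half-site AGGTGT, searched on both strands, occurred in 1 of the 5 windows, a Tbx1 window, at -76, and in 13.8% of all windows. The retinoid receptor half-site AGGTCA was absent from the 5 windows and present in 16.2% of all. GC content was 59% for Tbx4 against a median of 53% over all windows and 51.7% to 69% over the other T-box windows. These matches are letters in a window and do not mark sites that were bound.

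Tbx5 (chromosome 5, 120284672 to 120335227, plus strand) lies 149.9 kb beyond Tbx3 and encodes the fore limb and heart member of the Tbx4 pair. Its mean was 6.3 normalised counts, under the minimum of 10 for the fit, so that 7 of the 8 genes entered it. WT libraries held 2.7 and 4.8 in ES, 4.4 and 4.3 at EB4, 3.8 and 4.4 at EB5 and 12.6 and 27.5 at EB8, and Taf4a-/- libraries held 1.7 and 2.9, 0 and 3.8, 5.7 and 1.9, and 12.7 and 7.5. In both genotypes the highest libraries were those of EB8, with 7 to 26 reads. Both Taf4a-/- EB4 libraries were at or under 3 reads, and no fold is given there. At EB8 the genotypes overlapped.

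Tbx1 (chromosome 16, 18581806 to 18588113, minus strand), the gene of the pharyngeal arches and second heart field, was the member whose separation turned over with time. Its WT counts were 1.8 and 6.4 in ES, 3.3 and 18.2 at EB4, 16.0 and 8.8 at EB5 and 23.1 and 40.2 at EB8. Taf4a-/- libraries held 3.3 and 4.3, 0 and 5.1, 27.5 and 42.7, and 15.8 and 6.4. Taf4a-/- lay above WT at EB5 and below it at EB8, without overlap. The log2 differences were 0.07, -1.88, 1.45 and -1.5 with an SE of 0.95, from 0 to 44 reads per library, and the ES value was -0.63 without the first WT library and -0.08 without the second Taf4a-/- library.

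Tbx20 (chromosome 9, 24527648 to 24578746, minus strand), a regulator of heart muscle, held 351.3 and 55.0 normalised counts in WT ES, 73.4 and 102.9 at EB4, 50.8 and 63.7 at EB5 and 6.3 and 44.5 at EB8. The Taf4a-/- libraries held 115.4 and 85.1, 56.1 and 63.8, 55.0 and 39.8, and 41.1 and 78.8. The first WT ES library thus exceeded the other 15 libraries. The groups were separated at EB4 with Taf4a-/- below WT, and overlapped at the other stages. Its EB8 log2 difference was 1.67 (SE 0.85), and was 0.35 without the first and 2.99 without the second WT library.

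Tbx15 (chromosome 3, 99044304 to 99158182, plus strand), which is needed in skeletal and dermal mesenchyme, had overlapping WT libraries at all 4 stages. Normalised counts were 51.0 and 23.9 in WT ES, 36.2 and 55.8 at EB4, 42.3 and 25.3 at EB5 and 31.5 and 51.9 at EB8. Taf4a-/- libraries held 16.6 and 30.0, 22.2 and 38.3, 49.3 and 71.8, and 44.3 and 106.5. The genotypes separated at EB5 alone, with Taf4a-/- above WT and a log2 difference of 0.84 (SE 0.59).

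Tbx18 (chromosome 9, 87597635 to 87626095, minus strand) marks epicardium and the somite and works as a repressor. In WT it held 10.0 and 8.8 normalised counts in ES, 3.3 and 13.9 at EB4, 11.3 and 9.9 at EB5 and 42.0 and 39.2 at EB8. Taf4a-/- counts were 5.0 and 9.3, 0 and 10.2, 9.5 and 33.0, and 30.6 and 103.3. WT EB8 libraries were above those of every earlier WT stage, and the genotypes overlapped at all 4 stages, with log2 differences of -0.40, -1.26, 0.71 and 0.47 (SE 1.04). One library turned the direction at each embryoid body stage, to 0.49 at EB4 without the first Taf4a-/- library, and to -0.14 at EB5 and -0.40 at EB8 without the second. The first Taf4a-/- EB4 library held no read of Tbx1, Tbx5 or Tbx18.

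**Figure D3:**
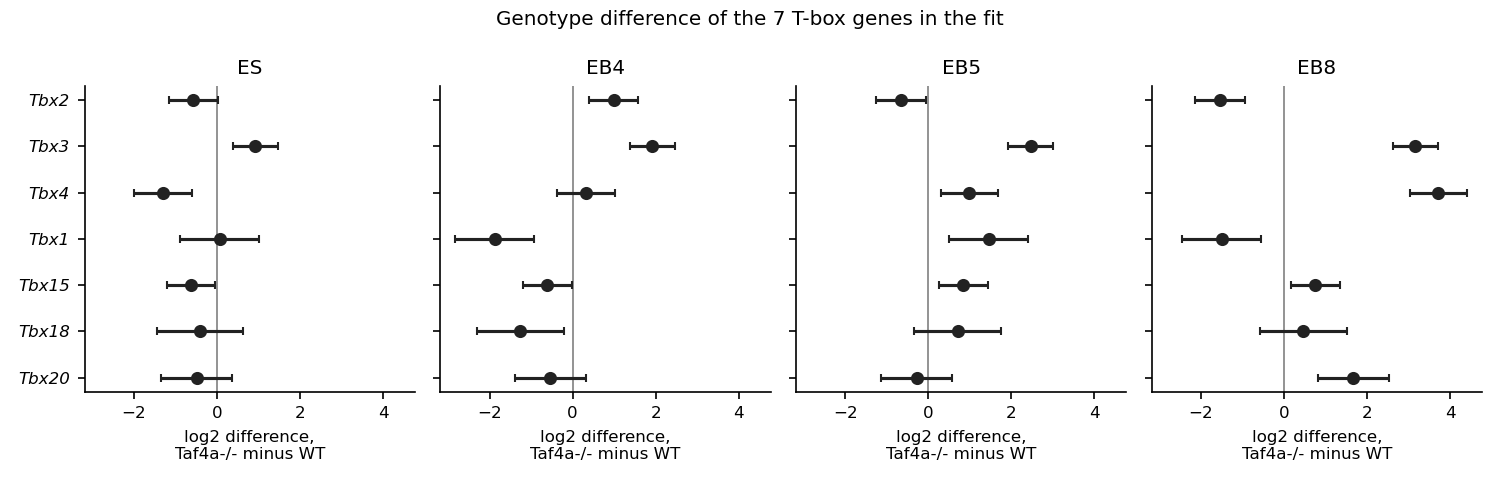
Log2 difference of Taf4a-/- minus WT (x axis) for the 7 T-box genes in the fit, one panel per stage. Circles are the fitted differences and bars their standard errors. At EB8 Tbx3 and Tbx4 lie at 3.16 and 3.72, and Tbx1 and Tbx2 lie below 0 at -1.5 and -1.54.

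In the fit over all 16124 tested genes (limma, threshold of 0.05 on the adjusted p), 0 of the 7 T-box genes passed in ES, where 0% of all tested genes passed, and none had an unadjusted p under 0.05 by limma, edgeR or DESeq2. At EB4 0 of 7 passed beside 6.12% of all genes. Of these 7, Tbx3 had an unadjusted p under 0.05 and passed by DESeq2, while edgeR called 0. Of all 16124 tested genes, DESeq2 called 2077 and edgeR 811 at this stage. At EB5 1 of 7 passed, Tbx3, beside 4.34%, but it no longer did when any 1 of the 4 EB5 libraries was left out, with log2 differences of 2.14 to 2.78. At EB8 2 of 7 passed, Tbx3 and Tbx4, beside 22.9%. Tbx2 did not, but passed by edgeR and DESeq2, which called 3546 and 4626 of all 16124 tested genes. Since the 8 genes were picked with these contrasts known, nothing is read from these counts.

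By position of the libraries alone, both Taf4a-/- libraries lay above both WT libraries for 0, 1, 4 and 2 of the 7 genes in stage order, beside 19%, 25.3%, 26.7% and 30.4% of all tested genes. They lay below for 1, 1, 1 and 2 of the 7, beside 20.7%, 26.6%, 28.1% and 33.5%. The median log2 difference of the 7 genes was -0.49, -0.53, 0.84 and 0.75, and the medians over all tested genes were 0.00, 0.00, -0.01 and -0.03.

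Ranked per kb of exon, Tbx3 had the highest and Tbx5 the lowest mean in WT and Taf4a-/- cells in ES, at EB4 and at EB5, but at EB4 the Tbx5 and Tbx18 libraries overlapped in both genotypes, so that the last place was not resolved there. In WT ES, Tbx3 at 286 normalised counts per kb was followed by Tbx20 at 45.2 and Tbx4 at 23.5, and the libraries of the latter pair overlapped. In WT EB8 the mean levels ran from Tbx2 at 294 and Tbx3 at 40.3 through Tbx1, Tbx15, Tbx18, Tbx20 and Tbx5 to Tbx4 at 3.89, and each neighbouring pair from Tbx1 to Tbx4 overlapped. In Taf4a-/- EB8 Tbx4 ranked behind Tbx3 and Tbx2 at 42.5, without overlap with Tbx2 above it or Tbx15 below it. Tbx4 therefore had the lowest mean in WT at this stage, where its libraries overlapped those of Tbx5 and the last place was not resolved. In Taf4a-/- Tbx4 came next after Tbx2.

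The genes beside the linked pairs were not used in choosing the 8 and could be tested. The nearest tested gene beyond Tbx3 was Gm16065, a lincRNA on the minus strand whose own 3' end lies 0.37 kb from that of Tbx3. Gm16065 held 0 reads in both WT EB8 libraries and 12.7 and 23.4 normalised counts in Taf4a-/- EB8 libraries, at least 5.71 times the mean of 3 reads per WT library. The limma adjusted p at EB8 was 0.00292, and at EB5, with 9.4 and 4.4 in WT against 34.1 and 42.7, it was 0.109. The library kit did not mark strand, so that reads of Tbx3 transcripts that run past the annotated end cannot be told apart from those of Gm16065. Med13l before Tbx3 and Rbm19 beyond Tbx5 had log2 differences within -0.24 to 0.43 and passed at no stage.

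Bcas3, which ends 6.49 kb before Tbx2, was higher in Taf4a-/- with log2 differences of 0.76, 0.82, 0.78 and 1.06 (SE 0.19) and limma adjusted p-values of 0.144, 0.0290, 0.0397 and 0.00209. Its EB8 counts were 748.7 and 856.5 in WT against 1759.8 and 1585.1, the opposite order to Tbx2, and leaving out the first Taf4a-/- library gave 0.98 there. The EB4 and EB5 calls were lost when any 1 of the 4 libraries of the stage was left out, at 0.73 to 0.91 and 0.67 to 0.89, and in the fit of the compared groups alone, and the EB5 call also with no filter (adjusted p = 0.0614). Brip1, beyond Tbx4, passed at no stage, with log2 differences of 0.28 to 0.82. Among the nearest neighbours of Tbx1, Tbx15, Tbx18 and Tbx20, Sept5, a septin beside Tbx1, fell by 2.24 at EB8 on the log2 scale (SE 0.39, limma adjusted p = 0.00182), and Herpud2 beside Tbx20 was higher by 0.60 (SE 0.18, limma adjusted p = 0.0334). The Herpud2 call was lost when any 1 EB8 library was left out, at 0.56 to 0.64, and in the fit of the compared groups alone. The other neighbours of these 4 genes did not pass.

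**Figure D4:**
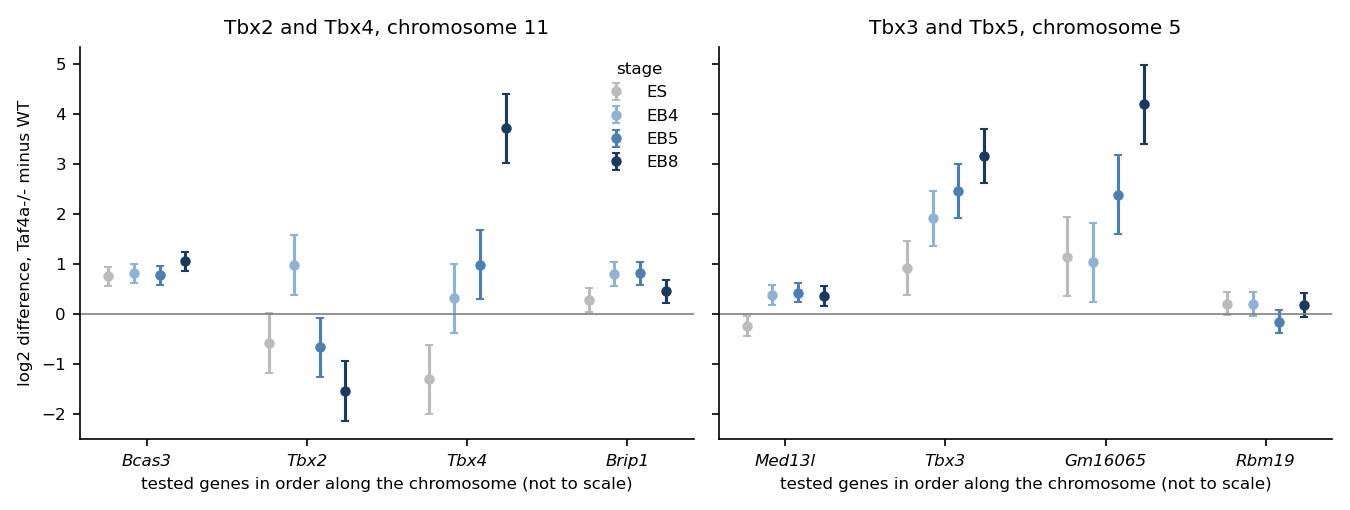
Log2 difference of Taf4a-/- minus WT (y axis) with its standard error for Tbx2, Tbx4, Tbx3 and their nearest tested neighbours, in chromosomal order and not to scale, by stage from light (ES) to dark (EB8). Tbx5, between Gm16065 and Rbm19, was not in the fit. At EB8 Tbx2 is at -1.54 between Bcas3 at 1.06 and Tbx4 at 3.72.

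Of 9 other T-box genes, 5 were tested and 0 passed in ES, at EB4 and at EB5 by limma, with 0, 0 and 2 at an unadjusted p under 0.05. By edgeR 0 passed at these stages, and DESeq2 called 1 at EB5, beside 1719 of all 16124 tested genes. At EB8 1 of the 5 passed, beside 22.9% of all tested genes. This was Eomes, which drives mesendoderm and trophoblast formation. It stood at 23.1 and 12.7 in the WT libraries and at 470.6 and 362.2 in the Taf4a-/- libraries, a log2 difference of 4.51 (SE 0.49, limma adjusted p = 0.000127). At EB8 T, the founding member of the family, had normalised counts of 6.3 and 3.2 against 8.4 and 38.3. Mga, whose product joins a T-box to a Myc-type domain, was at 7252.1 and 5977.8 against 6509.7 and 7035.9. The list's median was 1.8 at EB8, when the median of all tested genes was -0.03. This median over 5 genes was the value of T itself, with an SE of 1.07 and not past the threshold.

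Factors that act together with T-box proteins in heart and limb formed a list of 11 genes, all tested. None passed in ES, at EB4 or at EB5 by limma or by edgeR, each with 0, 3 and 3 at an unadjusted p under 0.05. At these stages DESeq2 called 0, 0 and 2, beside 469, 2077 and 1719 of all 16124 tested genes. Sall4, a zinc finger factor of ESCs that also works with Tbx5, was higher in Taf4a-/- at EB8, at 6405.3 and 4833.0 against 2259.8 and 2239.3, by 1.31 on the log2 scale (SE 0.17, limma adjusted p = 0.000347). The other 10 did not pass, so that 1 of 11 was called at EB8 beside 22.9% of all tested genes, and the list's median was -0.51.

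Among 10 signals and regulators placed upstream of T-box genes, limma called 1 higher and 0 lower at EB4, 0 and 1 at EB5, and 0 and 3 at EB8. In ES limma called 0, with 3 at an unadjusted p under 0.05, and edgeR called 0. DESeq2 called 1 in ES, beside 469 of all 16124 tested genes. Of all tested genes 6.12%, 4.34% and 22.9% were called at EB4, EB5 and EB8, and the 3 of 10 at EB8 lay near that share. Sonic hedgehog (Shh), the ventral signal of the neural tube, was at 104.0 and 175.8 in WT EB8 libraries and at 4.2 and 4.3 in Taf4a-/- (log2 difference -4.70, SE 0.70, limma adjusted p = 0.000717). Foxa2, a floor plate and endoderm factor that activates Shh, was lower at EB5 and EB8, with log2 differences of -4.84 and -3.46 (SE 0.72, limma adjusted p = 0.00900 and 0.00513). Its EB5 call was lost without the second WT library (-4.71, adjusted p = 0.0616) or the second Taf4a-/- library (-4.32, adjusted p = 0.135). Bmp7 was lower at EB8, at 862.0 and 686.0 against 2186.3 and 2242.5 (log2 difference -1.52, limma adjusted p = 0.0168), a call lost without the first or second WT or the second Taf4a-/- library (-1.54, -1.51 and -1.36). Aldh1a2, which makes retinoic acid, was higher at EB4, at 57.2 and 94.4 against 4.4 and 10.7 (log2 difference 3.23, limma adjusted p = 0.0143). This call was lost without the first WT or the second Taf4a-/- library (2.67 and 2.87) and in the fit of the compared groups alone. The median of the 10 was -1.22 at EB8.

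Genes reported as targets of these factors numbered 13, of which 12 were tested. By limma 0 passed in ES and at EB5, with 0 and 1 at an unadjusted p under 0.05 and 0 called by edgeR and DESeq2. Of all 16124 tested genes, DESeq2 called 469 in ES and 1719 at EB5. At the other stages 1 was lower at EB4, beside 6.12% of all tested genes called, and 1 was higher and 3 lower at EB8, beside 22.9%. Mycn, a proliferation gene of progenitors, was lower at EB8, at 1277.7 and 972.6 against 3503.2 and 4026.5 (log2 difference -1.75, SE 0.37, limma adjusted p = 0.00528). Hcn4, the pacemaker channel, was lower at EB4 and EB8, with log2 differences of -2.48 and -1.62 (limma adjusted p = 0.0218 and 0.0442). The EB8 call was lost in 7 of 14 alternatives, by edgeR (adjusted p = 0.0504), with no filter (0.0726), with upper-quartile rescaling (0.0625) and without any 1 library of the stage (log2 differences of -1.92 to -1.33). The EB4 call was lost in 4 of 14, in the fit of the compared groups alone (adjusted p = 0.176) and without the second WT, first Taf4a-/- or second Taf4a-/- library (-1.92, -2.0 and -2.96). Gja1, a gap junction gene repressed by Tbx2, was lower at EB8, with a log2 difference of -1.25 (limma adjusted p = 0.0443), a call lost in 7 of 14 alternatives. These were edgeR (adjusted p = 0.0602), no filter (0.0687), upper-quartile rescaling (0.0685), quantile normalisation (0.0560) and leaving out the first WT, second WT or first Taf4a-/- library (log2 differences of -1.11, -1.39 and -0.82). Nppb, a natriuretic peptide, was higher at EB8, with 45 reads in Taf4a-/- and 2 in WT libraries, a ratio of 22.6 with an exact 95% counting interval of 5.91 to 193. Its limma difference of 3.80 (adjusted p = 0.0132) was not past the threshold without the second WT or the first Taf4a-/- library (2.99 and 3.59). Nppa, the related peptide gene that Tbx2 represses and Tbx5 activates, held at most 5.0 normalised counts in any library. The median of the 12 was 0.49 at EB8.

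Markers of other cell types moved with some of these values. In ES, the summed level of 11 fibroblast markers was 1475 and 2964 in WT and 378 and 792 in Taf4a-/- libraries, with both Taf4a-/- libraries below both WT libraries for 6 of the 11, beside 20.7% of all tested genes. The 5 trophoblast markers summed to 712 and 693 against 215 and 244 in ES, and the 8 markers of extraembryonic endoderm to 582.5 and 377 against 175 and 272. At EB5 the fibroblast sum was 3305 and 2692 against 1799 and 1776. Tbx2 was separated in the same direction in ES, there on only 12 to 26 reads a library, and at EB5. At EB4 the fibroblast sum was also lower in Taf4a-/-, at 1465 and 1638 against 616 and 690, while Tbx2 overlapped. At EB8 the fibroblast sums overlapped, at 3675 and 4716 against 2223 and 5300, while Tbx2 was separated. The part of these cell types in Tbx2 was not tested. Cardiomyocyte markers summed to 208 to 718 in all 16 libraries, with Tnnt2 at 13.7 or less. Over 6 mesenchymal markers the sums were 2601 and 4032 in WT EB8 and 1971 and 3821 in Taf4a-/- EB8, beside 206 to 504 in ES and EB4 libraries. By limma 0 of the 5 tested markers were higher and 2 lower at EB8, beside 22.9% of all tested genes called. These were Pitx1, at 319.2 and 311.3 in WT against 45.4 and 16, and Osr1, at 424.2 and 494.4 against 29.5 and 26.6. Extraembryonic endoderm markers summed to 1050 to 2748 in WT and 240 to 1039 in Taf4a-/- libraries at EB4 and EB5. Trophoblast markers summed to 1464 and 1363 in WT EB8 and 3544 and 944 in Taf4a-/- EB8. The part of these cells in the T-box values was not tested.

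Profiles most like those of the T-box genes were ranked by Pearson's r over the 16 libraries, a description in which stage and genotype are shared by all points. Tbx2 was closest to Accn4, Rnf24 and the retinoic acid-degrading enzyme gene Cyp26b1 (r of 0.973, 0.972 and 0.959). Cyp26b1 had 18735 and 38733 normalised counts in WT EB8 and 4198 and 4334 in Taf4a-/- EB8. Tbx3 was closest to the pseudogene 2210409E12Rik, the ESC factor Tfcp2l1 and Clcn7 (0.954, 0.949 and 0.949), and Tfcp2l1 stood at 345 and 494 against 5403 and 7489 in the same libraries. Tbx4 was closest to 4930555I21Rik, Ccdc28a and Fads6 (0.929, 0.902 and 0.866), and Tbx18 to Arhgap20, Nagk and the matrix gene Tgfbi (0.921, 0.905 and 0.896). For Tbx1 the nearest were Gm15601, Ccdc13 and 3110062M04Rik (0.894, 0.865 and 0.860), for Tbx20 9130008F23Rik, Frmd8 and Ccdc72 (0.878, 0.856 and 0.849), and for Tbx15 Syne1, Ppp1r3d and Etfdh (0.796, 0.792 and 0.786). Within the 7 genes, r was 0.72 for Tbx2 with Tbx18, 0.64 for Tbx3 with Tbx4, -0.32 for Tbx2 with Tbx3 and -0.21 for the neighbours Tbx2 and Tbx4.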

How the data were processed

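Per the submitters' processing notes the authors used CASAVA 1.7 and 1.8, TopHat2 2.0.10, the mm9 build, HTSeq 0.5.4p3 and DESeq2 1.0.19. The deposited values are a normalised signal, that is, gene counts scaled by the size factor of each library. The annotation release and the strand setting were not given in the sources used here. In each library 100.0% of values were whole multiples (tolerance 0.1) of a step of 0.715 to 1.28 normalised counts, and reads were recovered by division. Reads were not collapsed by molecular identifiers, so that intervals and floors (3 reads per library) cover counting error only. Positions, strands and exon lengths were read from GENCODE M1 (NCBI37, the same build as mm9), which held 27603 of the 27807 identifiers.

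Each contrast was fitted with limma 3.58.1 (R 4.3.3) on log2(normalised count + 1) with 1 mean per genotype-by-stage group, all 16 libraries together, a mean-variance trend and Benjamini-Hochberg adjustment over the 16124 genes with a mean of at least 10. Fold differences on this scale understate changes of low genes. Residual and prior degrees of freedom were 8 and 4.27. Scripts were tested on simulated data. Alternatives were edgeR 4.0.16 and DESeq2 1.42.0 on the recovered reads, pseudocounts of 0.1 and 5, no filter, 2 other scalings, only the compared groups, a replicate block, and leaving out each library. The 8 genes and all gene lists were chosen with earlier results of these data known. From the pathway lists every gene past the threshold at any stage was named, up to 6 a list, beside the nearest tested neighbours and the 3 closest profiles of each tested T-box gene. T, Mga and Nppa fall outside that rule and were chosen after their values were seen. A listed target is not reported here and was left out of the counts. The labels give independent lines but not which line made which library, and p-values measure the spread between these libraries. Same-numbered replicates did not deviate together across genotypes at every stage, with correlations of 0.335, -0.0575, -0.209 and -0.133 in stage order, so that the number was not used in the main fit. These correlations compare genotypes within a stage. Whether a number marks the same line across stages was not tested, and the main fit treated the 16 libraries as independent.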

Additional observations from a re-analysis of the deposited data

Results flagged for a closer look

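A group of 4 genes was separated by genotype in opposite directions at different stages, both Taf4a-/- libraries lying above both WT libraries at one stage and below them at another. The difference between stages was not tested for any of them. For Tbx1 the log2 difference, Taf4a-/- minus WT, was 1.45 at EB5 and -1.5 at EB8, and neither passed the limma threshold. Nppb was at -0.60 in ES, 1.55 at EB5 and 3.80 at EB8, the last past the threshold and resting on 2 WT reads. Mycn was at 0.41 at EB4, -0.87 at EB5 and -1.75 at EB8, the last past the threshold. Herpud2, the neighbour of Tbx20, was at -0.42 at EB4, 0.09 at EB5 and 0.60 at EB8, of which the EB8 value passed.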

How the results depend on the processing

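At EB8 the log2 differences of Tbx3 and Tbx4 ran from 2.56 to 3.76 and from 2.64 to 4.80 over the 14 alternatives, a description of the values by which they were known when chosen. At EB4 the count of 0 became 1 (Tbx3) by DESeq2 and 1 with the replicate block, and at EB5 the count of 1 became 0 without each of the 4 libraries in turn. Over all tested genes, leaving out 1 library gave 0 to 121 calls in ES, 0 to 753 at EB4, 0 to 525 at EB5 and 1907 to 2408 at EB8, and the arm left with 1 library was assumed to vary like the others. In ES the 0 calls became 469 by DESeq2, 1 with no filter, 8 and 16 with pseudocounts of 0.1 and 5, 19 with upper-quartile rescaling, 18 with the replicate block and 14 with a crossed replicate block, while edgeR called 0 and limma had 1846 genes at an unadjusted p under 0.05. At EB4 the 986 calls became 2077 by DESeq2, 609 with no filter and 0 in the fit of the compared groups. At EB5 the 700 calls became 1719, 447 and 72 under the same settings. The cause of these changes was not tested.

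The labels do not say whether the replicate numbers pair WT with Taf4a-/- lines. The second library of Tbx3 exceeded the first in every group. Its SE was 0.542982 in the main fit, 0.227058 with a replicate block and 0.544986 with the numbers exchanged in Taf4a-/-. With the replicate block 1363, 983 and 4081 genes were called at EB4, EB5 and EB8, and with the numbers crossed, a pairing added after seeing the data, 1316, 1000 and 4154. Upper-quartile rescaling moved the EB8 median of all genes from -0.03 to 0.11 and the split of higher and lower calls from 1677 and 2020 to 2278 and 1615, and quantile normalisation gave 2216 and 1854. At EB5 the rescaling moved the split from 350 and 350 to 395 and 299. Counts of a few reads limit what can be seen of Tbx1, Tbx5 and Tbx18 before EB8, and of Tbx2 in ES and at EB4.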
